A study of Mus musculus with 12 samples.

Results

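Peaks of N6-methyladenosine (m6A) at the 3′ ends of genes made up 4912 of the 31518 peak rows (15.6%) in 4 deposited comparison tables of J1 mouse embryonic stem cells. A row was taken if its midpoint lay within 1000 nt of the 3′ end of its listed gene and more than 500 nt from the gene's 5′ end. Repeated coordinates within a table were counted once. The rows covered 4140 distinct intervals in 1672 of the 6097 genes listed. The remaining rows lay within 500 nt of a 5′ end (1484), away from both ends (19914) or had no listed gene (5208). By table, the 3′ end rows numbered 1526 of 9131 for Mettl14 and 1462 of 8671 for Mettl3 in set 1, and 947 of 6862 and 977 of 6854 in set 2.

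The cells grew on irradiated mouse embryonic fibroblasts with leukemia inhibiting factor, and lentiviral shRNA with puromycin selection gave stable lines. The shRNA targeted Mettl14 in 1 group and Mettl3 in 1 group and was a scramble control in 1 group, and all 3 groups shared the infection and selection. Fragmented poly(A) RNA was pulled down with an anti-m6A antibody, with 2 IP libraries in each group. Each set holds 1 scramble, 1 Mettl14 knockdown and 1 Mettl3 knockdown IP library, so the 2 tables of a set share their scramble library and the sets share none. No source used here ties a set to a replicate number, or says whether the 2 libraries of a group came from separate cultures. The p-values therefore measure the spread between libraries, which may be technical.

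m6A is laid down on pre-mRNA by a complex in which METTL3 is the catalytic subunit and METTL14 positions the RNA. The mark falls mostly at adenosines within the consensus DRACH, of which GGACT is a common form, and is known to gather in long internal exons and around stop codons. The last stretch of an mRNA holds the stop codon and the 3′ UTR, where binding proteins and microRNAs act on stability, and m6A readers there are known to speed decay.

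The sequences behind the named sites were read from GENCODE M21 transcripts, whose build GRCm38 is the mm10 build of the tables. Each line shows the GGACT nearest to the midpoint of the set 1 scramble peak, 5′ to 3′ on the transcript strand, with GGACT in capitals. The sites were picked to show the different fates at a gene's end: lost in all 4 tables (Hes6, Sart3, Abtb1, Gsc), kept but lower in all 4 (Olfml2b, Flnc), kept and higher in all 4 (Gbx2, Cnnm2), and kept with deposited changes of mixed direction (Jund, Myc, Bmp4).
Hes6, coding sequence, chr1:91412283-91412303, minus strand: ctgctgggGGACTccctagct
Sart3, 3′ UTR, chr5:113743113-113743133, minus strand: agtgagcaGGACTctgagatg
Abtb1, coding sequence, chr6:88836243-88836263, minus strand: attggcttGGACTgctaagcc
Gsc, coding sequence, chr12:104471494-104471514, minus strand: agcgatttGGACTcggacagc
Olfml2b, coding sequence, chr1:170681924-170681944, plus strand: tcggatgtGGACTttgctgtg
Flnc, 3′ UTR, chr6:29461580-29461600, plus strand: gtgcctaaGGACTctgtcagg
Gbx2, coding sequence, chr1:89928903-89928923, minus strand: gcggcggcGGACTgccttcac
Cnnm2, 3′ UTR, chr19:46878066-46878086, plus strand: gccctcctGGACTtggtctga
Jund, 3′ UTR, chr8:70700099-70700119, plus strand: gcatgcgcGGACTagctgcgg
Myc, coding sequence, chr15:61989831-61989851, plus strand: tctgaaaaGGACTtattgagg
Bmp4, coding sequence, chr14:46384129-46384149, minus strand: ctatacgtGGACTtcagtgac
A match marks letters in a peak far wider than the motif and does not place the modified base. The A of the GGACT lay 7 nt before the last base of the stop codon in Abtb1, 6 nt after it in Sart3 and 13 nt before it in Gsc. For Pgp, Tnk2, Foxi3, Popdc2, Mmp28 and Nodal no GGACT was found in the part of the peak that lies on the M21 transcript, and parts outside it were not searched.

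The 3′ end peaks lay inside the annotated gene, close to its end, and gathered at the stop codon. The median midpoint was between 558 and 595 nt before the gene end in the 6 libraries. Between 1.78% and 3.70% of midpoints lay beyond the end, and 7.95% to 11.9% of the peaks spanned it. Protein-coding genes held 94.8% to 96.1% of the peaks.

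On the longest coding transcript with the midpoint in an exon, 45.6% to 56.0% of the 3′ end peaks had their midpoint in the 3′ UTR and 36.4% to 48.3% in coding sequence. Among other peaks of genes, 17.0% to 25% were in the 3′ UTR and 60.6% to 69.3% in coding sequence. The midpoint lay within 200 nt of the stop codon for 45.2% to 49.3% of 3′ end peaks on coding transcripts, against 18.6% to 23.9% of other peaks. These positions follow in part from the rule that chose the peaks. The host 3′ UTRs were short for the same reason, with medians of 672 to 723 nt against 1919 to 1974 nt for transcripts with other peaks.

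**Figure D1:**
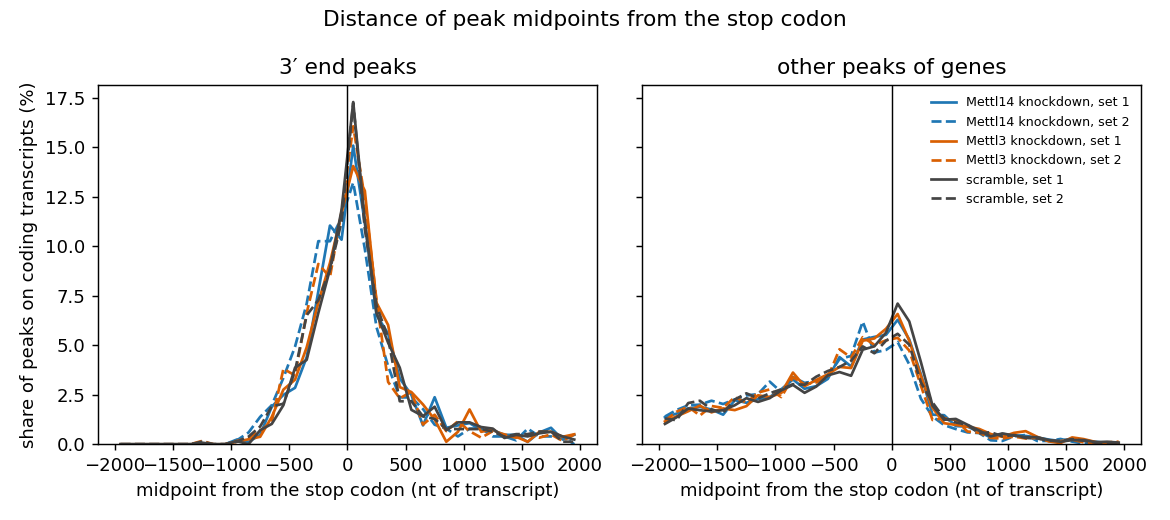
Distance of peak midpoints from the stop codon in nt of transcript (x axis) as a share of peaks on coding transcripts in % (y axis), in bins of 100 nt, for 3′ end peaks (left) and other peaks of genes (right), 1 line for each IP library. In the first 100 nt after the stop codon, the 3′ end peaks reach 13.2% to 17.3% and the other peaks 5.16% to 7.10%.

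The gene ends are those of the deposited tables, and GENCODE M21 places some of them elsewhere. The same end was given for 61.7% to 65.4% of the 3′ end peaks whose gene is in M21, and 85.7% to 88.1% met the rule with M21 ends as well. Of the 36 set 1 scramble peaks beyond the listed end of a gene found in M21, 16 fell in a 3′ UTR of the same gene in M21, as did 11 of 20 in set 2. Irs2, which carries insulin receptor signals into the cell, and Zdhhc23, a palmitoyltransferase, were such cases: their midpoints lay 492 and 28 nt beyond the listed end, in M21 3′ UTRs of 2329 and 4113 nt. Some peaks counted as 3′ end peaks thus lay in the first part of a longer 3′ UTR.

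The share of a library's peaks that lay at 3′ ends was lower in each knockdown library than in the scramble library of its set, by a small amount. It was 17.4% (1371 of 7886 peaks) and 15.3% (834 of 5438) in the scramble libraries of set 1 and set 2. The Mettl14 libraries had 15.8% (903 of 5717) and 12.4% (540 of 4367), and the Mettl3 libraries 16.6% (843 of 5087) and 14.1% (644 of 4577). The ranges of the groups overlapped, because set 2 was lower than set 1 in every group. The mean was 16.4% ± 1.45 (SD, n = 2) for scramble and 14.7% ± 1.88 (SD, n = 4) for knockdown, a difference of 1.66 percentage points (exact permutation test, two-sided, p = 0.4). The smallest p possible was 0.0667. With the scramble label permuted within each set, the exact permutation test gave p = 0.222 with a smallest possible p of 0.111. The same exact permutation test of 2 libraries against 2 gave p = 0.667 for each knockdown, with a smallest possible p of 0.333.

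**Figure D2:**
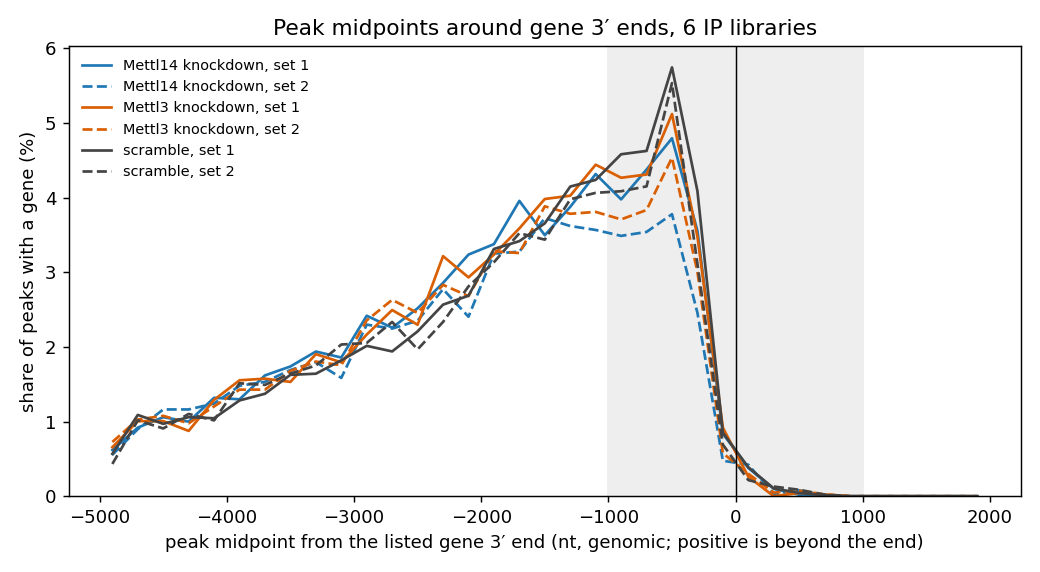
Peak midpoints by genomic distance from the listed gene 3′ end in nt (x axis, positive beyond the end), as a share of all peaks with a gene in % (y axis), in bins of 200 nt, 1 line for each IP library, with the 1000 nt window shaded. In the bin 600 to 400 nt before the end, the scramble libraries reach 5.74% and 5.53%, above the Mettl14 (4.80% and 3.78%) and Mettl3 (5.12% and 4.54%) libraries.

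Peaks at 3′ ends were slightly narrower than other peaks of genes, had similar median enrichment, and more often had GGACT at their centre. Median width over the 6 libraries averaged 577 nt for 3′ end peaks and 606 nt for the others. The difference was -29.7 nt ± 13.5 (SD, n = 6 libraries), and 3′ end peaks were narrower in 6 of 6 (exact sign-flip permutation test, two-sided, p = 0.03125, the smallest possible, adjusted over 4 measures to 0.0625). Median fold enrichment, the authors' ratio of IP to control in the peak, averaged 14.2 against 14.6, a difference of -0.42 ± 0.28 (SD, n = 6) seen in 5 of 6 libraries (exact sign-flip permutation test, p = 0.0625, adjusted 0.0833). Median tags per peak, known for the 4 knockdown libraries, averaged 73.8 and 75.3 (exact sign-flip permutation test, p = 0.5, smallest possible 0.13). No measure passed 0.05 after adjustment.

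The motif GGACT was searched on the transcript strand over the midpoint and 100 nt to each side. It was present in 41.6% of 3′ end windows and 32.7% of other windows on average, a difference of 8.90 percentage points ± 1.7 (SD, n = 6). The 3′ end share was higher in 6 of 6 libraries, by 6.79 to 11.1 points (exact sign-flip permutation test, p = 0.03125, adjusted 0.0625). Among peaks within 200 nt of a stop codon the shares were 44.2% to 49.6% for 3′ end peaks and 35.7% to 40.4% for the others. For comparison, 18.1% of 20967 coding genes had GGACT in a window of the same length centred 568 nt before the end of their transcript. That window is placed only roughly like the 3′ end peaks, whose distances are genomic and run to the listed gene end. It also covers genes with and without peaks, so the 2 shares are not a like comparison. No such window was run for the other peaks.

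After knockdown, 3′ end peaks of the scramble library were lost more often than other peaks of genes in each of the 4 tables. A peak was lost if no knockdown peak overlapped it on the same strand. In set 1, 45.4% of 1371 3′ end peaks were lost in the Mettl14 table (95% Wilson interval 42.8% to 48.1%), against 37.3% of 5331 other peaks of genes and 43.3% of all scramble peaks. In the Mettl3 table of set 1 the shares were 45.1% (42.5% to 47.8%) and 39.9%, with 45.4% for all peaks. In set 2, 48.8% of 834 3′ end peaks were lost for Mettl14 (45.4% to 52.2%), against 39.6% of 3792 others and 45.9% of all peaks. For Mettl3 in set 2 the shares were 39.9% (36.7% to 43.3%) and 35.9%, with 41.9% for all peaks. The loss of 3′ end peaks was thus close to the share over all peaks, which holds the peaks without a gene, lost in 67.7% to 72.4% of cases.

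The excess over other peaks of genes averaged 6.67 percentage points ± 2.43 (SD, n = 4 tables; range 4.01 to 9.24). The exact sign-flip permutation test gave p = 0.13, the smallest possible with 4 tables, and tables of a set share their scramble library. The excess was 4.04 points larger for Mettl14 than for Mettl3 (exact permutation test, p = 0.333, the smallest possible). The tables give no library depth, so a lost peak and a peak below the caller's limit in a shallower library cannot be told apart. A gap of the same direction was present between the scramble libraries, where no knockdown differs. Of set 1 scramble peaks, 53.4% of those at 3′ ends and 62.7% of other peaks of genes were found again in set 2. The part of this lower recurrence in the excess loss was not tested.

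**Figure D3:**
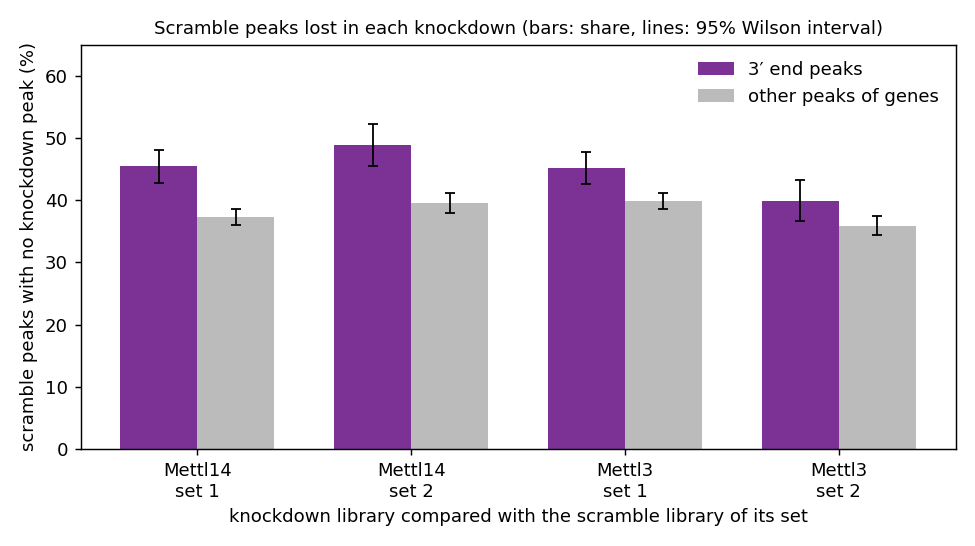
Share of scramble peaks with no overlapping knockdown peak in % (y axis) for 3′ end peaks and other peaks of genes in the 4 tables (x axis), with bars for the share and lines for the 95% Wilson interval, which covers counting error only. The 3′ end bars (39.9% to 48.8%) stand above the bars of other peaks (35.9% to 39.9%) within each table.

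Peaks near the stop codon showed the same order. Of 625 set 1 scramble peaks at a 3′ end and within 200 nt of a stop codon, 47.7% were lost in the Mettl14 table and 47.0% in the Mettl3 table, against 36.9% and 39.4% of 1141 other stop codon peaks. In set 2 the shares were 53.8% and 42.2% of 377 peaks, against 45.8% and 35.9% of 707. The other stop codon peaks are, by the rule, mostly those of transcripts with longer 3′ UTRs. Over all stop codon peaks, the loss in the Mettl14 table of set 1 was 51.5% for 3′ UTRs up to 500 nt, 47.8% up to 1000 nt, 38.0% up to 2000 nt and 34.7% beyond. In the Mettl3 table of set 2 these shares were 44.9%, 41.9%, 35.4% and 35.5%. In the Mettl14 table of set 2 they were 57.8%, 56.8%, 44.8% and 43.6%, and in the Mettl3 table of set 1 50.6%, 48.3%, 41.7% and 35.5%. Median widths in the same 4 classes did not follow that order, at 467, 568, 566 and 498 nt in set 1 and 530, 636, 611 and 542 nt in set 2. Over all 3′ end peaks on coding transcripts the loss did not follow that order, at 42.4%, 45.1%, 46.8% and 46.2% for Mettl14 in set 1. For Mettl3 they gave 42.1%, 44.7%, 44.4% and 45.6% in set 1 and 36.9%, 40.5%, 40.1% and 41.8% in set 2. For Mettl14 in set 2 they rose and then fell, at 44.6%, 52.8%, 46.5% and 44.0%. In the class up to 500 nt, they were lost less often than all peaks of genes on coding transcripts in each table. In the longer classes they were lost more often. Peaks within 500 nt of a gene's 5′ end were lost more often than either kind of stop codon peak, in 55.9% and 57.3% of 286 cases for Mettl14 and Mettl3 in set 1 and in 62.7% and 56.8% of 241 in set 2.

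Loss also varied along the last 1000 nt. Of 375 set 1 peaks 750 to 1000 nt before the end, 41.1% were lost in the Mettl14 table and 37.9% in the Mettl3 table. Of 442 peaks 250 to 500 nt before the end, 51.1% and 49.8% were lost. In set 2 the shares rose from 37.2% and 31.4% of 242 peaks to 61.5% and 46.9% of 260 peaks. In the last 250 nt, with 99 and 49 peaks, the shares were 53.5% and 56.6% in set 1 and 53.1% for both knockdowns in set 2. Median width fell over the same distances, from 707 to 512 and 370 nt in set 1 and from 795 to 562 and 464 nt in set 2, and its part in the loss was not tested. Among 3′ end peaks, those in the 3′ UTR were lost more often than those in coding sequence in all 4 tables. The shares were 48.96% against 38.3%, 47.5% against 38.5%, 54.0% against 40.1% and 41.7% against 36.5% (Mettl14 and Mettl3 in set 1, then in set 2). Other peaks of genes showed the same order in each table, at 35.7% against 32.2%, 38.3% against 35.0%, 45.0% against 32.8% and 36.0% against 30.8%.

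Narrow peaks were lost most often, at a 3′ end or elsewhere. Peaks with a gene were split by width into 3 classes of equal number. In the narrowest class of set 1 (up to 454 nt), 62.2% of 3′ end and 59.2% of other peaks were lost in the Mettl14 table. In the widest class the shares were 25.7% and 15.5%. Within classes of width the excess of 3′ end peaks ran from -0.19 to 10.4 percentage points over the 4 tables. Within 3 such classes of enrichment it was largest in the lowest, at 12.8 and 21.3 points for Mettl14 and 10.9 and 12.7 for Mettl3, and ran from -4.08 to 10.6 points in the upper 2 classes.

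In genes that had both a 3′ end peak and another peak in the scramble library, neither kind was lost more often in every table. In set 1, of 340 such genes, 59 lost every 3′ end peak and kept every other peak in the Mettl14 table, and 63 did the opposite. In the Mettl3 table the counts were 65 and 65. In set 2, of 165 genes, the counts were 38 and 26 for Mettl14 and 41 and 31 for Mettl3. Of 1024 set 1 3′ end peaks in genes with no other scramble peak, 47.5% were lost for Mettl14 and 46.4% for Mettl3, against 39.5% and 41.5% of 347 in genes with both kinds. For set 2 the values were 49.3% and 40.5%, against 46.7% and 37.7%.

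New peaks, found in the knockdown library alone, made up a smaller share of 3′ end peaks than of all peaks in each table. For Mettl14 in set 1 they made up 14.3% of 903 3′ end peaks, where other peaks of genes gave 15.5% and all peaks 18.9%. For Mettl3 in set 1 they made up 9.85% of 843, where other peaks of genes gave 11.1% and all peaks 12.8%. For Mettl14 in set 2 they made up 20.6% of 540, with 27.5% over other peaks of genes and 31% over all peaks. For Mettl3 in set 2 they made up 19.1% of 644, with 24.5% over other peaks of genes and 28.1% over all peaks. The share of other peaks of genes thus lay between those of 3′ end peaks and all peaks in every table. In set 1 it was close to that of 3′ end peaks. At 3′ ends, 2 sites were new in all 4 tables and overlapped no scramble peak of either set. No such count is given for other peaks, so whether 2 is few cannot be said. Cxx1a, a retrotransposon-derived gene on the X chromosome, had a 3′ UTR peak with 70, 58, 55 and 34 tags (Mettl14 set 1, set 2, Mettl3 set 1, set 2). Kcnq3, a voltage-gated potassium channel subunit, had 12, 17, 9 and 21 tags in its coding sequence. Both were named after their values were seen.

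Where a 3′ end peak was found in both libraries, its enrichment changed about as much as that of other peaks, and the sets differed. The median log2 change of the deposited fold was -0.11 for Mettl14 and 0.15 for Mettl3 in set 1, and -0.72 and -0.99 in set 2. Other peaks of genes had medians of -0.06, 0.22, -0.58 and -0.90 in the same order, so that 3′ end peaks lay 0.09 lower on average (exact sign-flip permutation test over 4 tables, p = 0.13, the smallest possible). The authors multiplied knockdown enrichment by 1 constant in each table, 0.906 and 0.777 for Mettl14 and 1.00 and 0.609 for Mettl3, and without it the set 1 medians were 0.04 and 0.14 and the set 2 medians -0.36 and -0.27. With the median of all shared peaks at 0, they were -0.05, -0.08, -0.13 and -0.08. Both of these scalings shift 3′ end and other peaks of a table equally, so the order of the 2 kinds stays as deposited.

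A log2 change of -1 or lower was seen in 88 of 748 shared 3′ end peaks (11.8%) for Mettl14 in set 1, against 10.9% of all shared peaks. It was seen in 55 of 752 (7.31%, all peaks 6.58%) for Mettl3 in set 1, in 136 of 427 (31.9%, all peaks 26.6%) for Mettl14 in set 2 and in 244 of 501 (48.7%, all peaks 44.1%) for Mettl3 in set 2. A change of 1 or higher was seen in 58 (7.75%, all peaks 8.9%), 106 (14.1%, all peaks 15.8%), 9 (2.11%, all peaks 2.41%) and 3 (0.60%, all peaks 1.08%), in the same order. These shares were near those of all shared peaks in each table. Against that background, which holds peaks without a gene, the low share was above in all 4 and the high share below in all 4. Other peaks of genes had low shares of 10.3%, 6.08%, 25.5% and 43.0% in the same order, each below that of 3′ end peaks. Their high shares were 7.24%, 13.9%, 1.53% and 0.82%, below those of 3′ end peaks except for Mettl3 in set 2.

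**Figure D4:**
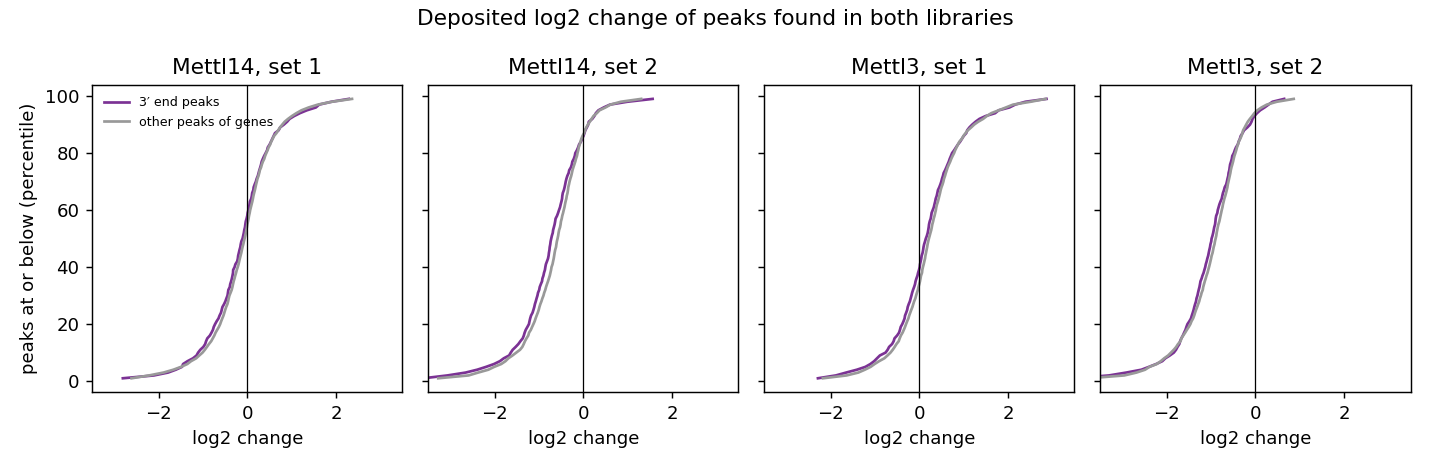
Cumulative distribution (y axis, percentile of peaks) of the deposited log2 change of knockdown over scramble (x axis) for peaks found in both libraries, in each of the 4 tables, for 3′ end peaks and other peaks of genes. The 2 curves run close together in each table, with medians of -0.11 and -0.06, -0.72 and -0.58, 0.15 and 0.22, and -0.99 and -0.90 from left to right.

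The scramble libraries shared 732 sites at 3′ ends, in 724 genes. These were 53.4% of the 1371 set 1 peaks, and they met 87.9% of the 834 set 2 peaks. Other peaks of genes in set 1 were found in both scramble libraries more often, in 62.7% of cases. In the 4 tables, 323 sites (44.1%) were kept in all, 130, 92 and 99 were lost in 1, 2 and 3 tables, and 88 (12.0%), in 88 genes, were lost in all 4. Of 3340 sites of other peaks found in both scramble libraries, 53.7% were kept in all 4 tables and 9.43% were lost in all 4. Sites lost in all 4 were narrower than those kept, with medians of 505 and 512 nt against 827 and 862 nt in the 2 scramble libraries. Their enrichment was similar, at 13.6 and 15.6 against 14.3 and 13.6. The 3′ UTR held 59.1% of the lost and 48.9% of the kept sites.

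Among the 88 sites lost in all 4 tables, 8 were named for the most scramble tags. Pgp, phosphoglycolate phosphatase, had a peak of 1675 nt in set 1, with 274 tags in set 1 and 288 in set 2 and enrichments of 6.34 and 6.13. Hes6, a helix-loop-helix factor that promotes neuronal differentiation, had 235 and 246 tags and enrichments of 6.88 and 7.85 (chr1:91411592-91412603). Sart3, which recycles spliceosomal snRNPs, had 221 and 218 tags and enrichments of 5.93 and 6.62. Both scramble libraries thus held broad and similar peaks at these ends, and none of the 4 knockdown libraries listed an overlapping peak.

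Grasp, a scaffold protein of receptor trafficking, had 205 and 199 tags. Cnpy3, a chaperone for Toll-like receptors, had 193 and 177 tags, and Abtb1, an ankyrin and BTB domain protein, 179 and 185. Abt1, a nucleolar activator of basal transcription, had 170 and 179 tags, and Tnk2, a non-receptor tyrosine kinase, 176 and 173. The enrichments of these 5 ran from 4.61 to 10.7. By region, the midpoints were in coding sequence for Pgp, Hes6, Grasp, Abtb1 and Abt1, and in the 3′ UTR for Sart3, Cnpy3 and Tnk2.

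Of the 323 kept sites, 100 (31.0%) had a lower deposited enrichment in all 4 tables, 6 (1.86%) a higher one in all 4, and 217 were mixed. Among 1793 kept sites of other peaks, 25.2% were lower and 1.23% higher in all 4. Without the scaling constant, 66 3′ end sites were lower and 34 higher in all 4. With the median of all shared peaks at 0, 73 were lower and 46 higher. These were 20.4% and 10.5% without the constant and 22.6% and 14.2% with the median at 0, where other peaks had 17.1% and 14.9%, and 16.8% and 17.1%. The share higher in all 4 was thus above that of other peaks with the deposited scaling and below it with the other 2 scalings. Of the 100, 66 and 60 were also lower in all 4 under these scalings. The split of lower and higher sites thus rested on the scaling, while the genes named next, except Zdhhc23 and Disp1, kept their direction in all 4 tables under each.

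The sites with the lowest mean log2 change were named next. Olfml2b, an extracellular olfactomedin-like protein, had enrichments of 252 and 265 in the scramble libraries, 91.1 and 138 in the Mettl14 libraries and 45.8 and 20 in the Mettl3 libraries (set 1 and set 2), with log2 changes of -1.61, -1.30, -2.46 and -4.44. Flnc, the muscle filamin, had 46.4 and 58.6 against 18.7 and 18.6 in Mettl14 and 10.9 and 9.76 in Mettl3. Both scramble values of Olfml2b and of Flnc lay above all 4 knockdown values, which follows in part from choosing sites lower in all 4 tables.

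Sema4c, a transmembrane semaphorin, had 111 and 61.7 in scramble, 17.1 and 31.3 in Mettl14, and 36.3 and 32.6 in Mettl3. Irs2 had 104 and 14.2 in scramble, 14.2 and 8.81 in Mettl14, and 16.9 and 12.1 in Mettl3, so its groups overlapped. Zdhhc23 had 237 and 39.3 against 26.8 and 19.96 in Mettl14 and 55.4 and 45.0 in Mettl3, and it also overlapped. Its Mettl3 set 2 change of -0.52 turned positive without the constant. Oxct2b, a ketone body transferase of the testis, had 67.0 and 78.8 against 21.6, 45.9, 35.1 and 14.4, and Foxi3, a forkhead factor, 53.5 and 25.4 against 14.6, 14.8, 14.4 and 13.4 (Mettl14 set 1 and set 2, then Mettl3). The tags in these knockdown peaks ran from 23 in Oxct2b to 238 in Irs2.

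The 6 sites higher in all 4 tables were Sertad3, Cnnm2, Gbx2, Poli, Dusp27 and Disp1. Gbx2, a homeobox factor that supports naive pluripotency downstream of LIF, had enrichments of 5.12 and 4.78 in scramble, 10.3 and 8.66 in Mettl14, and 9.10 and 9.64 in Mettl3. Its 4 knockdown values lay above both scramble values, with log2 changes of 0.87, 0.49, 0.83 and 0.30 and 269 to 371 tags. For all 6 sites, such an order follows in part from their choice as higher in all 4 tables. Sertad3, a transcription cofactor, had 15.0 and 13.4 in scramble, 68.3 and 17.8 in Mettl14, and 36.3 and 34.0 in Mettl3. Cnnm2, a magnesium transport protein, had 11.5 and 15.1 against 20.8 and 23.3 in Mettl14 and 38.4 and 29.1 in Mettl3.

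Poli, a translesion DNA polymerase, had enrichments of 5.36 and 6.02 in scramble and 9.17 to 10.9 in the knockdown libraries. Dusp27, an atypical dual specificity phosphatase, had 9.14 and 9.28 in scramble, 13.2 and 18.4 in Mettl14, and 14.9 and 17.6 in Mettl3. Disp1, which releases Hedgehog ligands, had 33.4 and 17.8 against 42.7 and 62.8 in Mettl14 and 33.7 and 29.8 in Mettl3. Its groups overlapped, its Mettl3 changes were 0.01 and 0.03, and it was no longer higher in all 4 tables with the median of shared peaks at 0.

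**Figure D5:**
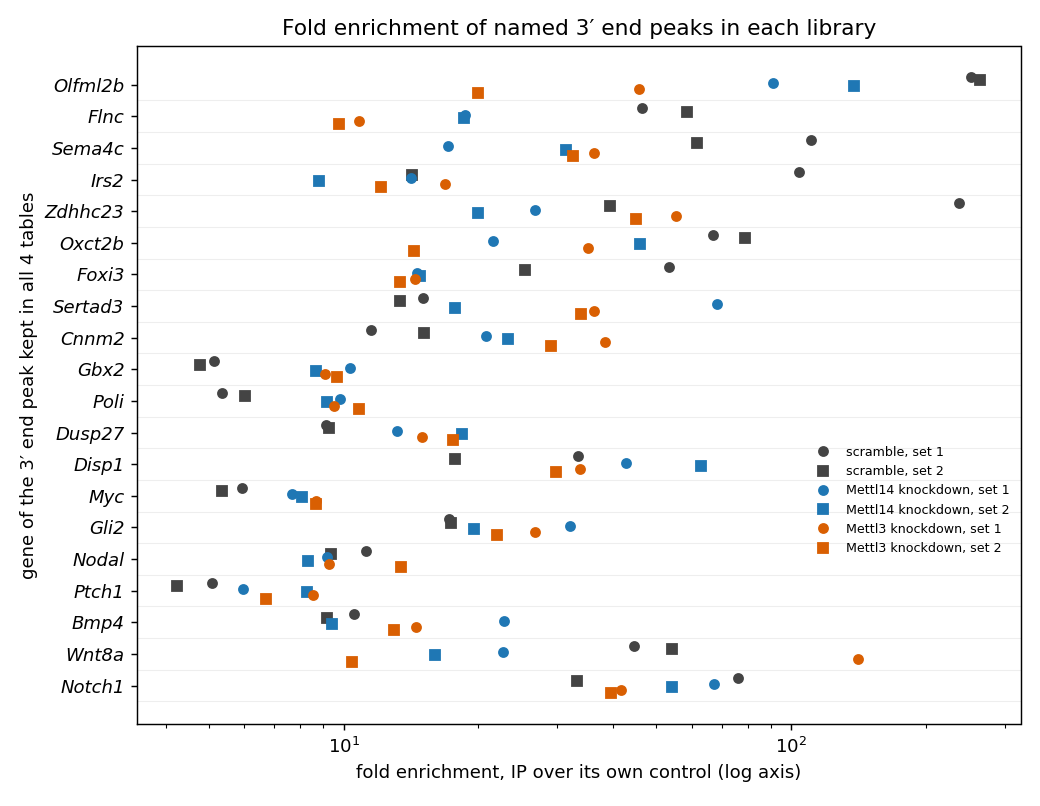
Deposited fold enrichment of IP over its own control (x axis, log scale) of named 3′ end peaks (y axis) kept in all 4 tables, 1 point for each library, with circles for set 1 and squares for set 2. Scramble points stand to the right of the knockdown points from Olfml2b to Foxi3, with overlap in Irs2 and Zdhhc23, and to the left from Sertad3 to Dusp27. The sites from Olfml2b to Disp1 were chosen by their direction in all 4 tables, which in part fixes this order.

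The kept 3′ end peaks with the most tags, a count that also depends on transcript abundance and peak width, had enrichments between 2.86 and 9.75 in every library. They lay in Jund, an AP-1 subunit, Ier2, an immediate early gene, Aars, the alanyl-tRNA synthetase, Cldn4, a tight junction claudin, Gpr125, an adhesion receptor, and Itga3, an integrin subunit. Jund had 641 to 737 tags in the knockdown libraries and enrichments of 4.68 and 4.17 in scramble, 4.50 and 4.17 in Mettl14, and 5.98 and 4.57 in Mettl3. Itga3 had 9.41 and 8.62 in scramble, 6.93 and 4.90 in Mettl14 and 4.44 and 4.09 in Mettl3, so its 4 knockdown values lay below both scramble values. Cldn4 had log2 changes of -0.25, -0.73, -0.19 and -0.96 and stayed lower in all 4 tables under each scaling.

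The highest mean enrichments in scramble, from 203 to 313, were at Gm216, Popdc2, Gprin2, Olfml2b, Nrg2 and Mmp28. Apart from Mmp28, with 95 and 69, the tags given for these scramble peaks numbered 16 to 58. Only Olfml2b was kept in all 4 tables. Gm216 and Gprin2 were lost in 2 and Popdc2, a muscle popeye protein, Nrg2, a neuregulin, and Mmp28, a matrix metalloproteinase, in 3. At Mmp28 the enrichment was 28.0 in set 1 and 379 in set 2.

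Of 3453 genes with any peak in both scramble libraries, 724 (20.97%) had one at the 3′ end in both, and the gene lists are given beside that share. Of 33 pluripotency genes, 11 had any peak in both and 2, Gbx2 and Myc, had one at the 3′ end. Myc, the proto-oncogene transcription factor, had enrichments of 5.93 and 5.36 in scramble, 7.67 and 8.06 in Mettl14, and 8.68 and 8.67 in Mettl3, with all 4 knockdown values above both scramble values. Its deposited log2 changes were 0.23, 0.22, 0.55 and -0.02, and all 4 were positive without the constant. The median over both genes of the mean log2 change was 0.43, against -0.43 over all 323 kept sites.

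Of 40 genes of developmental signalling, 24 had any peak in both scramble libraries and 6 had one at the 3′ end: Bmp4, Gli2, Nodal, Notch1, Ptch1 and Wnt8a. All 6 were kept in all 4 tables, as were 44.1% of the 732 sites, with a median of their mean log2 changes of -0.06. Nodal, a TGF-beta ligand of the early embryo, had enrichments of 11.2 and 9.39 in scramble, 9.16 and 8.33 in Mettl14, and 9.28 and 13.4 in Mettl3. Its log2 changes were -0.44, -0.54, -0.27 and -0.20, and the last was positive without the constant. Bmp4, a ligand of the same superfamily, had 10.6 and 9.16 in scramble, 22.9 and 9.40 in Mettl14, and 14.5 and 12.99 in Mettl3, and its deposited changes were positive in set 1 (0.97 and 0.46) and negative in set 2 (-0.33 and -0.21). Without the constant all 4 were positive.

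Ptch1, the Hedgehog receptor, had 5.08 and 4.25 in scramble, 5.96 and 8.27 in Mettl14, and 8.53 and 6.69 in Mettl3, with all knockdown values above both scramble values. Its deposited log2 changes were 0.09, 0.60, 0.75 and -0.06 (Mettl14 set 1 and set 2, then Mettl3), and all 4 were positive without the constant. Gli2, a Hedgehog transcription factor, had 17.2 and 17.4 in scramble and 19.5 to 32.1 in the knockdown libraries, again with no overlap, while its deposited changes in set 1 were 0.76 and 0.64, those in set 2 were -0.20 and -0.38, and all 4 were positive without the constant. Notch1, a receptor for cell contact signals, had 76.0 and 33.2 in scramble, 67.1 and 54.1 in Mettl14, and 41.6 and 39.5 in Mettl3, which overlapped. Wnt8a, a Wnt ligand, had 44.7 and 54.1 in scramble, 22.7 and 16.03 in Mettl14, and 141 and 10.5 in Mettl3, so the 2 Mettl3 libraries lay on opposite sides of scramble.

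In the list of 22 mesoderm and endoderm genes, 3 had any peak in both scramble libraries and 1 had one at the 3′ end. This was Gsc, a homeobox factor of the organizer, with enrichments of 208 and 77.5 on 23 and 18 tags, and it was lost in all 4 tables. Of 18 genes of the m6A machinery, 10 had a peak in both and none had one at the 3′ end. The 20 ectoderm and neural genes gave 9 and none, the 36 genes of mRNA 3′ end processing and decay 8 and none, and the 23 cell cycle genes 3 and none. Of 32 chromatin regulators 13 had a peak, with 1 at the 3′ end in Ehmt1, an H3K9 methyltransferase, lost in 1 table. None of 20 cytosolic ribosomal protein genes had a listed peak in both scramble libraries.

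The tables give no expression, so the knockdowns and the cell type could be checked only through peaks. Of 5 embryonic stem cell markers, Sox2 had a peak in both scramble libraries, and Pou5f1, Nanog, Zfp42 and Esrrb had none in either. Of 18 fibroblast markers, 2 had a peak in both, 1 of them at the 3′ end in Pdgfrb, lost in the 2 tables of set 2. A missing peak does not show a missing transcript. The part of feeder RNA in the results was not tested.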

How the data were processed

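Peak rows of 4 deposited tables were used, from 6 IP libraries in 3 groups. The 6 libraries without antibody were not used here. The build was mm10 and the tools included TopHat2 2.0.6, Picard 1.74 and Bowtie 0.12.7, besides cutadapt 1.1, SAMtools 0.1.18 and CASAVA 1.8.2, per the submitters' processing notes. MACS names mark the peaks, per the file headers. The sources used here give neither the peak caller's version nor the gene release. The deposited tag count is the number of tags in a peak in its own library, from 4 to 2151. Fold enrichment, as deposited, is a ratio of IP over control signal within a peak, and every score and fold was the authors'. The deposited FDR is in percent, at most 9.99. The authors' signed fold score of knockdown over scramble, scaled by 1 constant in each table, was turned into log2, and scramble enrichments were solved from it.

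Peaks of a knockdown library were its shared and new rows, and those of a scramble library its lost rows and the scramble intervals of shared rows. Counts over libraries therefore differ from counts over rows. Tags and FDR of scramble peaks are given for lost rows alone, so tags were compared in the 4 knockdown libraries, and the kept sites with the most tags were ranked by knockdown tags. Peaks overlapped if they shared 1 nt or more of a strand. A site was a set 1 scramble peak at a 3′ end that overlapped one in set 2. Of 1672 genes, 1648 (98.6%) were in GENCODE M21, on whose transcripts peaks were placed. Tests were exact, over libraries or tables, with Benjamini-Hochberg adjustment over 4 measures. The rule for named genes took the 8 lost sites with the most tags, up to 8 kept sites lower or higher in all 4 tables by mean log2 change, the 6 with the most tags and the 6 with the highest enrichment, and list genes. One of the sites so named is not reported here. The members and lists were chosen with earlier results of these data known. Python 3.11.15, pandas 2.3.3, numpy 2.4.6, SciPy 1.17.1 and matplotlib 3.10.9 were used, and the steps were tested on simulated data. Alternatives were windows of 500 and 2000 nt, FDR of at most 1%, at least 20 tags, 50% of the scramble peak covered, other scalings, each set left out, and a block by set added after seeing the data.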

Additional observations from a re-analysis of the deposited data

How the results depend on the processing

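The direction of the differences in the share of peaks at 3′ ends, the share lost, width and GGACT held under every alternative run. With a window of 500 nt, the width difference was -131.2 nt (adjusted p = 0.0417, exact sign-flip permutation test) and the GGACT difference 12.3 percentage points (adjusted p = 0.0417, the same exact test). The fold enrichment difference reversed to 1.33, higher at 3′ ends (adjusted p = 0.0417, the same exact test). In that window 40 genes lost their peak in all 4 tables. With a window of 2000 nt, the fold enrichment difference turned to 0.077, the tag difference to 1.13, the excess loss fell to 2.35 percentage points, from 6.67 in the window of 1000 nt and 14.02 in that of 500 nt, and the genes numbered 157. With FDR of at most 1% in the knockdown libraries, the enrichment difference was 0.17. Without the scaling constant the median log2 change of Mettl14 in set 1 was 0.036, and with the median of all shared peaks at 0 it was -0.076 for Mettl3 in set 1, -0.13 for Mettl14 in set 2 and -0.0755 for Mettl3 in set 2. The cause of the window's effect was not tested. Leaving out a set leaves 2 tables and 1 scramble library. Without set 1, 270 of 823 genes lost a peak in both tables, and without set 2, 456 of 1342. These genes needed a peak in 1 scramble library alone, so the counts do not compare with the 88 of 724 genes. No gene counts for other peaks are given beside those of any alternative. The FDR and tag minimums could not be run for the share of peaks and the share lost. A replicate block by set, chosen after seeing the data, left the difference in the share of peaks at 1.66 percentage points (exact permutation test, p = 0.222). The other differences are already taken within a library or a table. Depth is unknown, and intervals cover counting error only.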

Other observations

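Overlapping 3′ end peaks of the 6 libraries merged into 1722 regions. Of these, 298 (17.3%) held a 3′ end peak of all 6 libraries and 574 (33.3%) of 1 library alone. An overlapping peak whose midpoint fell outside the window did not count. No such shares are given for other peaks, so whether these are high or low cannot be said. The peaks just inside the window of 1000 nt had a larger median width than those just outside it in both sets. In set 1, 150 peaks at 900 to 1000 nt had a median width of 716 nt and 145 at 1000 to 1100 nt one of 650 nt, and in set 2 these were 799 nt (95 peaks) and 762 nt (93 peaks). Loss was higher outside than inside in 3 of the 4 tables. For Mettl14 it was 38% inside and 32.4% outside in set 1 and 26.3% and 40.9% in set 2, and for Mettl3 34.7% and 37.2%, then 30.5% and 36.6%.

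A few 3′ end peaks lay outside coding sequence and 3′ UTRs. Those with a midpoint in no exon of the gene were 41 in set 1 and 18 in set 2. Of the 41, 56.1% and 61.0% were lost in the Mettl14 and the Mettl3 table, as were 66.7% and 44.4% of the 18. Other peaks of genes in no exon were lost more often in each table, at 68.0% and 69.3% in set 1 and 68.2% and 65.1% in set 2. In noncoding exons, too, other peaks of genes were lost more often than 3′ end peaks in each table. The 45 set 1 peaks in noncoding exons had the highest median enrichment, 37.6, against 15.04 in coding sequence and 14.1 in the 3′ UTR. The 26 in set 2 had 29.5, where the 3′ UTR had 13.7.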
